A study of Mus musculus with 12 samples.

Results

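Axon guidance genes were followed across cultured neurons of the mouse trigeminal ganglion (TG), which carries touch and pain from the head, after transfection of a miRNA. The set held 36 genes, listed by symbol, out of 19505 gene symbols on the array. It comprised 10 semaphorin, neuropilin and plexin genes, 5 Slit and Robo genes, 5 netrin and netrin receptor genes, and 6 ephrin and Eph receptor genes. A further 5 were surface adhesion molecules or the guidance molecule Rgma, and 5 were intracellular effectors (the CRMP family and Marcks). All 36 had a probe, each exactly 1, so no choice between probes was needed. The groups were 3 arrays each of neurons transfected with miR-21, with miR-34a, with miR-324 and with scramble miRNAs. All were primary TG cultures on laminin-coated coverslips. The labels give no strain, sex, age, dose or time after transfection. Nothing in them ties each array to its own culture or animal. The p-values therefore reflect array-to-array spread alone, and that spread may be technical.

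Growing axons steer by secreted and membrane-bound cues read by receptors on the growth cone. Secreted class 3 semaphorins bind neuropilins, which signal through A-type plexins and mostly repel sensory axons. Slits act through Robo receptors, netrins attract through Dcc and repel through Unc5 receptors, and ephrins signal to Eph receptors on contact between cells. Immunoglobulin-family adhesion molecules such as Ncam1 and L1cam hold axons to each other and to their path, and CRMP proteins pass guidance signals on to microtubules. Endothelial cells, fibroblasts and glia use many of the same molecules.

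The agents themselves are short RNAs that act mainly through the seed, bases 2 to 8, which pairs with messenger RNAs. The labels name no arm, so the 5p strands of miR-21a and miR-34a and both strands of miR-324 are shown to let the seeds be compared. They are mouse mature sequences from RefSeq (GRCm38.p6), 5′ to 3′, with the seed in capitals.
miR-21a-5p: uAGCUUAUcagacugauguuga
miR-34a-5p: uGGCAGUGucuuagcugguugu
miR-324-5p: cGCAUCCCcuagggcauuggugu
miR-324-3p: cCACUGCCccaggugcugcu
They lie at chr11:86584120-86584141 (minus strand), chr4:150068473-150068494, chr11:70012060-70012082 and chr11:70012095-70012114 (plus strand). No seed is shared among them. The seed of miR-324-3p is the reverse complement of the seed of miR-34a-5p. Target sites in the 36 transcripts were not analysed here.

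Values below are log2 signals, 1 unit being a 2-fold difference, and those of a group are listed in the order of the label numbers (1, 2 and 3, but 1, 2 and 4 for miR-324). Array medians ranged over 5.91 to 6.06. One title suffix, called suffix A, is common to miR-34a 1 and 2 and scramble 1 and 2; another, called suffix B, is common to miR-324 2 and scramble 3. The other 6 arrays carry none. The titles of miR-324 2 and scramble 3, and no others, also hold the word mimic. The labels do not explain it, and it cannot be told apart from suffix B. Cell type markers differed between arrays of the same group. The median of 9 neuron markers stood at 12.75, 12.62 and 13.40 after miR-21, 14.87, 14.80 and 10.19 after miR-34a, 10.83, 13.29 and 13.16 after miR-324, and 14.51, 15.18 and 13.53 in scramble. The neuronal tubulin Tubb3 was present in every array, at 10.15 or more, and Scn10a, a sodium channel of pain-sensing neurons, ranged from 6.63 to 11.63. The median of 6 endothelial markers stood at 10.79, 10.30 and 11.21 after miR-21, 11.22, 11.32 and 14.67 after miR-34a, 15.43, 13.33 and 14.04 after miR-324, and 11.09, 11.46 and 12.80 in scramble. The median of 5 macrophage markers was 8.64 to 9.20 in the 4 suffix A arrays and 5.32 or lower in the other 8. The pituitary hormone Prl stood at 14.26 to 15.17 in the miR-324 arrays and 14.92 in scramble 3, and at 4.83 or lower in the other 8. The median of 3 Y-linked genes stood at 7.26, 7.09 and 7.85 after miR-21 and 3.74, 3.18 and 8.53 after miR-34a. It stood at 7.88, 2.96 and 5.13 after miR-324, and 2.93, 2.81 and 2.93 in scramble. The arrays thus differed in male cells. In miR-21 against scramble this difference cannot be told apart from the miRNA. Nor can the suffix, which every scramble array and no miR-21 array carries.

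None of the 36 genes passed the threshold against scramble after any of the miRNAs. The threshold was a Benjamini-Hochberg adjusted p under 0.05 in limma over 19572 named probes. After miR-21, 0 of 36 passed, against 1.04% of all probes. After miR-34a, 0 of 36 passed, against 0.00% of all probes, and after miR-324, 0 of 36, against 0.00%. The lowest adjusted p among the 36 was 0.12 after miR-21 (Slit3), 0.999 after miR-34a and 0.31 after miR-324. At an unadjusted p under 0.05 the counts were 7 after miR-21, 0 after miR-34a and 15 after miR-324, where 16.6%, 1.46% and 14.7% of all probes reached it. Between miRNAs, 4 of 36 passed in miR-21 against miR-324, where 2.46% of all probes did. Ncam1 and Slit3 were higher after miR-21 (2 genes, against 1.31% of all probes), and Sema3f and Efnb2 lower (2 genes, against 1.14%). In miR-34a against miR-21 0 passed (0.158% of all probes), with 2 at an unadjusted p under 0.05 (11.3%). In miR-34a against miR-324 0 passed (0.00%), with 11 at an unadjusted p under 0.05 (13.0%). A moderated F test over the 4 groups called 0 of 36 (0.603% of all probes), with Sema3f, Efnb2 and Slit3 closest (adjusted p = 0.066, 0.071 and 0.073). In these bulk cultures fewer cells of a type and less RNA per cell cannot be told apart.

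**Figure D1:**
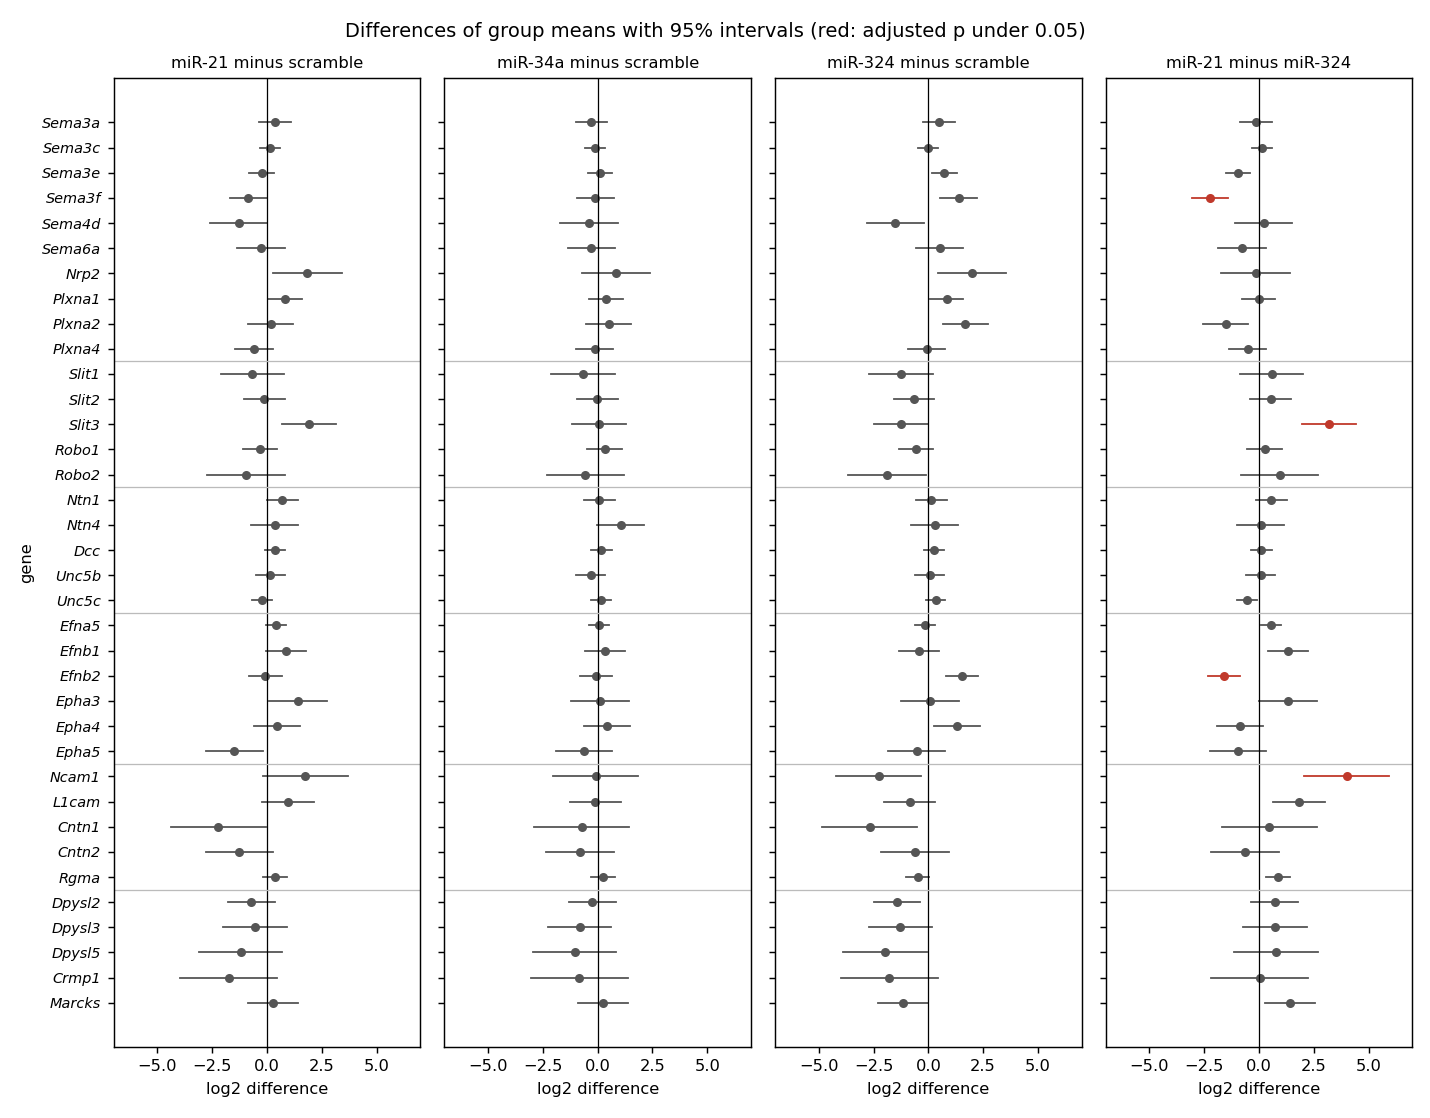
Differences in log2 signal between group means (points) with 95% intervals of the limma fit (lines) for the 36 genes, in blocks by class, for each miRNA minus scramble and for miR-21 minus miR-324. Red marks an adjusted p under 0.05, reached by Sema3f, Slit3, Efnb2 and Ncam1 in miR-21 minus miR-324 and by no gene in the other panels.

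In miR-34a and in scramble the array numbered 3 differed from the other two in its title suffix and also in signal. Relative to scramble 1 and 2 averaged, scramble 3 was over 2-fold away in 15 of 36 genes (41.7%, against 12.4% of all probes), 3 higher (3.73% of all probes) and 12 lower (8.66%). Relative to miR-34a 1 and 2 averaged, miR-34a 3 was as far away in 19 of 36 (52.8%, against 18.4%), 3 higher (8.61%) and 16 lower (9.74%). Within miR-324 the array numbered 1 stood apart from the other two in 17 of 36 genes (47.2%, against 11.8% of all probes), 6 higher (6.56%) and 11 lower (5.21%). In miR-21, the array numbered 2 did so in 2 of 36 (5.56%, against 6.50%). The last 2 arrays were singled out after their values were seen. Arrays with the same suffix, in contrast, lay close together across groups. Within suffix A, miR-34a 1 and 2 differed from scramble 1 and 2 by over 2-fold in 0 of 36 genes, and every difference lay between −0.465 and 0.55. No gene passed there (limma, 2 arrays against 2), with 1 of 36 at an unadjusted p under 0.05 (Ntn4, 0.55 ± 0.22, SE) where 3.89% of all probes reached it. Within suffix B, miR-324 2 differed from scramble 3 by over 2-fold in 1 of 36 genes, Sema3e (7.36 against 6.33), where 4.97% of all probes did. With 1 array a side that pair has no test.

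**Figure D2:**
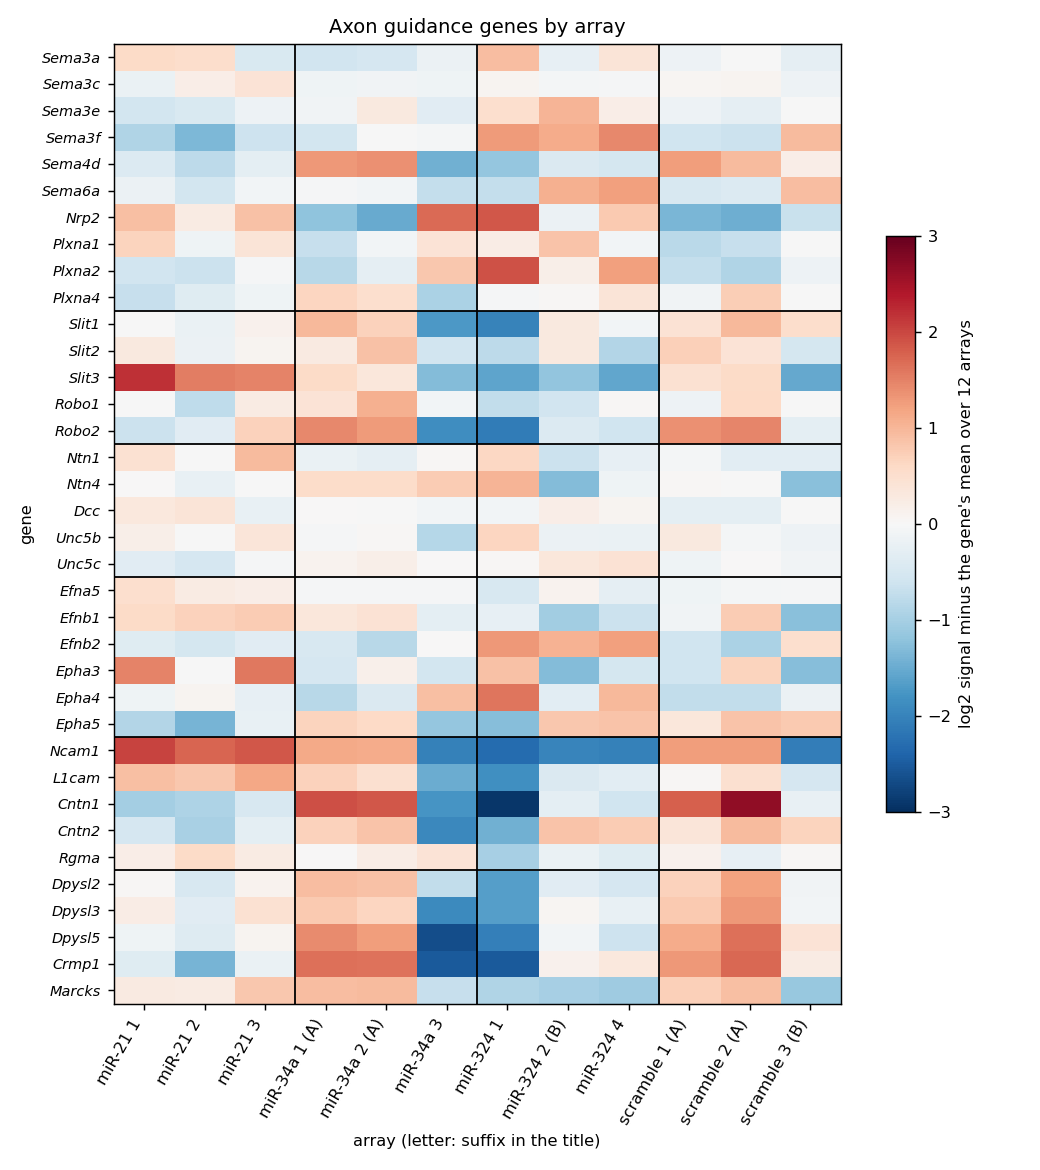
Log2 signal of each of the 36 genes minus its own mean over the 12 arrays (colour, limited to 3 units either way), with genes in rows by class and arrays in columns by group; A and B mark the title suffix. The suffix A arrays of miR-34a and scramble look alike, and miR-34a 3 and miR-324 1 are low in the CRMP family, Cntn1, Cntn2, Slit1 and Robo2.

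Counts by class are given for the 3 arrays that stood apart, without a test between classes. In miR-34a 3 all 5 of the CRMP family and Marcks, 4 of 5 adhesion molecules and Rgma, and 4 of 5 Slits and Robos were over 2-fold below miR-34a 1 and 2. Of the semaphorins, neuropilin and plexins 2 of 10 were over 2-fold lower and 2 of 10 over 2-fold higher. Of the ephrins and Eph receptors 1 of 6 was lower and 1 of 6 higher, and of the netrins and their receptors 0 of 5. In miR-324 1 over 2-fold differences either way were found in 4 of 5 of the CRMP family and Marcks, 3 of 5 adhesion molecules and Rgma, 2 of 5 Slits and Robos, 2 of 5 netrins and receptors, 3 of 6 ephrins and Eph receptors and 3 of 10 semaphorins and receptors. In scramble 3 the counts in the same order were 4 of 5, 2 of 5, 3 of 5, 1 of 5, 3 of 6 and 2 of 10. The median deviation of a class takes each gene relative to its own mean over the 12 arrays. For the CRMP family and Marcks it was 0.03, −0.38 and 0.10 after miR-21, 0.93, 0.95 and −1.90 after miR-34a, −1.66, −0.09 and −0.51 after miR-324, and 0.78, 1.30 and −0.09 in scramble. The lowest values lay in the arrays with the lowest neuron marker medians, miR-34a 3 and miR-324 1. For the netrins and their receptors it stayed between −0.165 and 0.165 in every array but miR-324 1 (0.63).

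**Figure D3:**
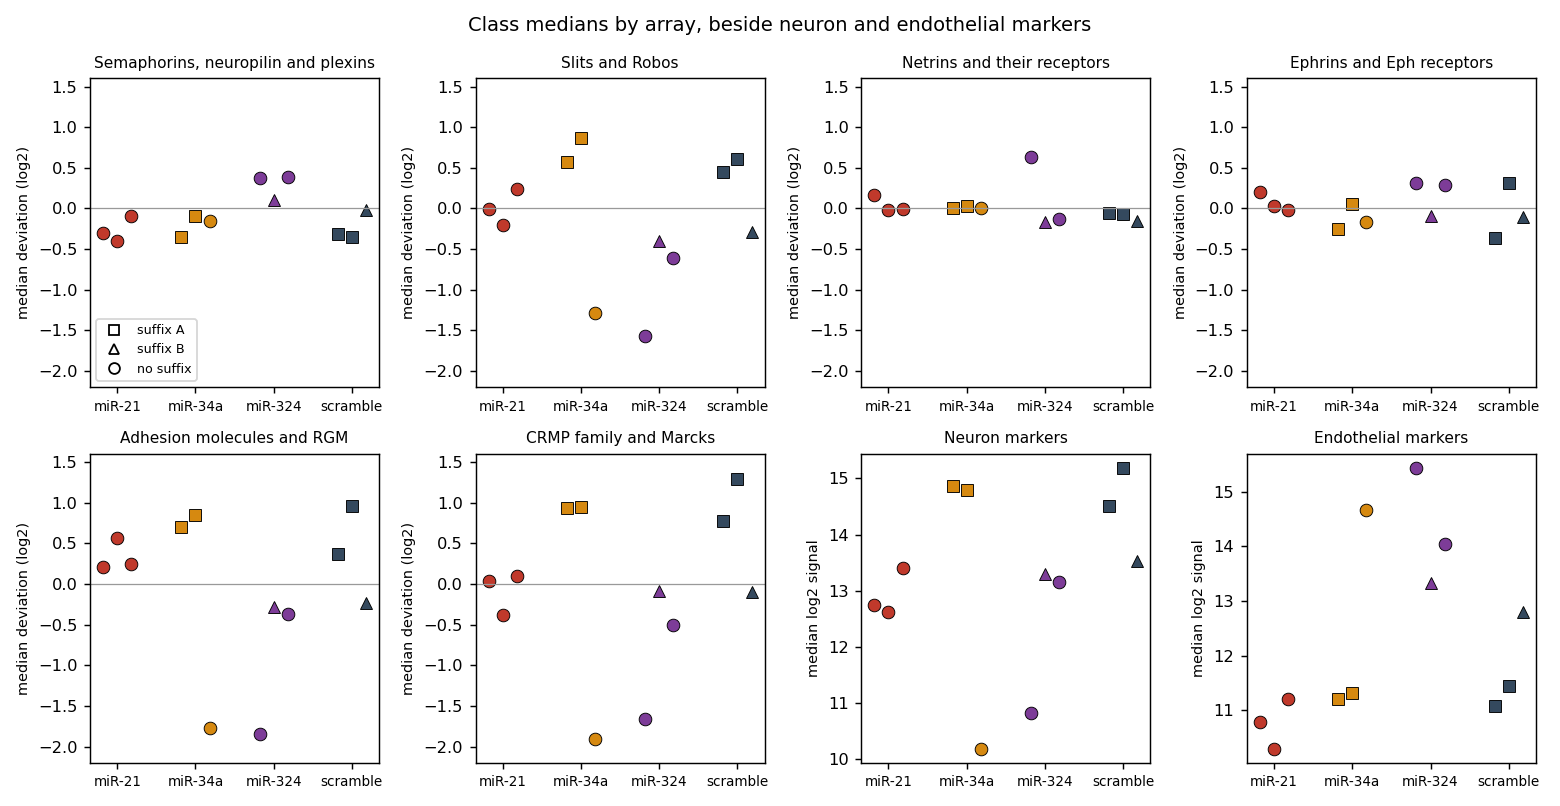
Median deviation of each class by array (log2 signal of each gene minus its mean over 12 arrays, then the median over the class), beside the median log2 signal of 9 neuron and 6 endothelial markers. Each point is 1 array and its shape marks the title suffix; miR-34a 3 and miR-324 1 are lowest for the CRMP family and Marcks, the adhesion molecules and the Slits and Robos, and lowest for neuron markers.

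Among the semaphorins and their receptors, Sema3f separated miR-21 from miR-324. Sema3f is a secreted class 3 semaphorin that repels axons through neuropilin-2. It read 8.52, 8.07 and 8.81 after miR-21, 8.87, 9.41 and 9.36 after miR-34a, 10.70, 10.54 and 10.88 after miR-324, and 8.82, 8.78 and 10.37 in scramble. All miR-324 arrays lay above all miR-21 and miR-34a arrays, and scramble 3 lay close to miR-324 while scramble 1 and 2 lay close to miR-21 3. After miR-21 Sema3f was lower than after miR-324 by 2.24 ± 0.38 (SE; 8.47 ± 0.37 and 10.71 ± 0.17, SD, n = 3 each; log2 difference −2.24, limma adjusted p = 0.012), a 4.72-fold difference. It did not pass without miR-21 1, miR-21 2 or miR-324 4 (adjusted p = 0.061, 0.061 and 0.060). Against scramble it differed by −0.86 ± 0.38 after miR-21 and by 1.38 ± 0.38 after miR-324 (adjusted p = 0.29 and 0.31). Without scramble 3 the miR-324 difference was 1.91 and passed (adjusted p = 0.025), and the miR-21 difference was −0.33 (adjusted p = 0.56). The 4 arrays with the highest Sema3f, miR-324 1, 2 and 4 and scramble 3, were the 4 high in Prl. Of the pituitary markers 4 of 4 were lower in the mean after miR-21 than after miR-324 (1 past the threshold, median −5.26), and of the endothelial markers 6 of 6 (3 past the threshold, median −3.48). Their part in the Sema3f difference was not tested.

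Nrp2, the neuropilin that Sema3f binds, had the largest difference of its class against scramble after each miRNA, without passing. It read 13.03, 12.38 and 13.02 after miR-21, 10.94, 10.63 and 13.84 after miR-34a, 14.00, 11.97 and 12.93 after miR-324, and 10.77, 10.67 and 11.47 in scramble. Every miR-21 and miR-324 array lay above the scramble arrays, whereas miR-34a 1 and 2 lay close to scramble 1 and 2. The differences from scramble were 1.84 ± 0.72 after miR-21, 0.83 ± 0.72 after miR-34a and 2.00 ± 0.72 after miR-324 (SE; adjusted p = 0.23, 0.999 and 0.31), and the miR-34a difference was −0.19 without miR-34a 3. The highest readings, in miR-324 1 and miR-34a 3, fell in the arrays with the highest endothelial marker medians (15.43 and 14.67). The other arrays did not follow that order. The miR-21 arrays read 12.38 to 13.03 with endothelial medians of 10.30 to 11.21, and scramble 3 read 11.47 with a median of 12.80. The part of endothelial cells in these differences was not tested. Nrp2 is also a receptor of lymphatic and venous endothelium.

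The other members of the class did not pass in any comparison. Plxna2, a signalling partner of neuropilins, averaged 9.88 ± 0.33 after miR-21, 10.20 ± 0.84 after miR-34a, 11.40 ± 0.88 after miR-324 and 9.71 ± 0.39 in scramble (SD, n = 3 each). Its miR-324 arrays lay above the scramble arrays. Sema4d, a membrane semaphorin of lymphoid and other immune cells, read 6.58 to 7.01 in the 4 suffix A arrays, 5.82 in scramble 3 and 5.33 or lower elsewhere. These 4 arrays were also those with high macrophage markers, whose part in this pattern was not tested. Sema4d exceeded the floor guide, defined with Slit2 below, in 6 of 12 arrays, so its lower readings lay mostly at the floor. Sema6a, a transmembrane semaphorin, was highest in miR-324 4, miR-324 2 and scramble 3 (12.54, 12.39 and 12.25) and between 10.59 and 11.29 in the other arrays. Plxna1 ranged from 8.51 to 10.16 and Plxna4 from 10.03 to 11.72 over the 12 arrays, both being co-receptors for class 3 semaphorins. Sema3a, the founding repellent of sensory axons, ranged from 4.86 to 6.38 and exceeded the floor guide in 7 of 12 arrays. Sema3c ranged from 7.24 to 7.85 and Sema3e, which acts on plexin D1, from 5.78 to 7.36. For Sema3c the group means spanned 0.25, the narrowest of the class. The class median against scramble was −0.05 after miR-21, −0.11 after miR-34a and 0.62 after miR-324, where the median of all probes was 0.13, 0.04 and 0.09. Groups did not overlap in 3, 0 and 5 of 10 genes, where 25.6%, 5.80% and 19.9% of all probes did not.

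Among the Slits and Robos, Slit3 was the one that passed, higher after miR-21 than after miR-324. Slits are secreted ligands that repel axons and make sensory axons branch, and Slit3 is also made outside the nervous system. It read 10.85, 10.20 and 10.14 after miR-21, 9.22, 8.99 and 7.36 after miR-34a, 7.08, 7.48 and 7.09 after miR-324, and 9.10, 9.22 and 7.11 in scramble. Its readings fell on 3 levels. The miR-21 arrays were highest, the suffix A arrays lay between 8.99 and 9.22, and miR-34a 3, the miR-324 arrays and scramble 3 lay between 7.08 and 7.48. The difference between miR-21 and miR-324 was 3.18 ± 0.56 (SE; 10.40 ± 0.39 and 7.22 ± 0.23, SD, n = 3 each; limma adjusted p = 0.014), or 9.06-fold. It passed in 3 of 6 fits without 1 array and not without miR-21 1, miR-21 2 or miR-324 4 (adjusted p = 0.078, 0.055 and 0.064). Against scramble Slit3 was 1.92 ± 0.56 higher in the mean after miR-21 without passing (adjusted p = 0.12), all miR-21 arrays lying above all scramble arrays, and 1.24 higher without scramble 3. The median of 5 fibroblast markers was 13.06, 11.53 and 13.20 after miR-21, 12.27, 11.81 and 8.06 after miR-34a, 9.01, 9.69 and 9.80 after miR-324, and 12.27, 11.63 and 9.70 in scramble. It too was 11.53 or more in the 7 arrays high or intermediate in Slit3 and 9.80 or less in the other 5. The 5 markers did not move as 1: between miR-21 and miR-324 3 were higher (2 past the threshold) and 2 lower in the mean. Dcn, a matrix proteoglycan, read 12.77 to 13.69 after miR-21, against 12.94, 16.61 and 16.51 after miR-324, and 17.02 in scramble 3, all of the last 4 being arrays low in Slit3. Lum, another, read 10.57 to 11.44 after miR-21, against 9.01, 13.23 and 12.09 after miR-324. The part of fibroblasts in the Slit3 difference was not tested.

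RefSeq promoter windows were given for 2 of the 4 genes that passed, Slit3 and Efnb2, the ligand described with the ephrins below. They are shown because the genes moved in opposite directions between miR-21 and miR-324. Each covers the 250 bases before the annotated start (GRCm38.p6), 5′ to 3′ on the gene's strand. Capitals mark matches on either strand to the GC box, which reads GGGCGG, to the CCAAT box, named by its letters, or to the TATA box, which reads TATAAA.
Slit3, chr11:35121206-35121455, plus strand: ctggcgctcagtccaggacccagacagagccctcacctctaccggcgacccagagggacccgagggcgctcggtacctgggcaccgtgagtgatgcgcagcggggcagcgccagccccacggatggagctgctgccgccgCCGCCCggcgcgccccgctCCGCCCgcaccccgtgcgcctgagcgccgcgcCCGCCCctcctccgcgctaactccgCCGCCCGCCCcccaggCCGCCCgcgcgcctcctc
Efnb2, chr8:8661243-8661492, minus strand: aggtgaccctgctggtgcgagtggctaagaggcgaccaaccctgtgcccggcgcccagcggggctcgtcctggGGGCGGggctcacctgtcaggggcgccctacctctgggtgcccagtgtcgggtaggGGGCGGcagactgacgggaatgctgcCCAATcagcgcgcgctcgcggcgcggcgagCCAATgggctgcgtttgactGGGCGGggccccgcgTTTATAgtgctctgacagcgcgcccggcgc
The Slit3 window held 6 GC box matches, 2 of them overlapping, and no match to the other motifs. The Efnb2 window held 3 GC box, 2 CCAAT box and 1 TATA box matches. Among all 32851 windows given by RefSeq, a share of 32.7% held a GC box, 33.8% a CCAAT box and 12.4% a TATA box. The windows were 78.8% and 72% G or C for Slit3 and Efnb2, against a median of 52.4% over all windows. These matches describe letters and not use.

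Slit1 and Robo2 had their lowest readings in the same arrays. Robo2, a Slit receptor of sensory axons, read 6.01, 6.32 and 7.35 after miR-21, 8.11, 7.94 and 4.79 after miR-34a, 4.55, 6.26 and 6.05 after miR-324, and 8.03, 8.13 and 6.37 in scramble. Slit1, a ligand made by neurons, read 8.84, 8.66 and 8.99 after miR-21, 9.84, 9.54 and 7.14 after miR-34a, 6.85, 9.15 and 8.78 after miR-324, and 9.30, 9.82 and 9.39 in scramble. Both were lowest in miR-324 1 and miR-34a 3, the arrays with the lowest neuron markers (10.83 and 10.19), whose part was not tested. Robo2 differed from scramble by −1.89 ± 0.81 after miR-324, the largest difference of its class there, and Slit1 by −0.66 ± 0.67 after miR-34a (SE; adjusted p = 0.33 and 0.999), or by 0.19 without miR-34a 3. Slit2 and the receptor Robo1 lay at 3.42 to 5.16 and 3.41 to 5.23. Each exceeded the 95th percentile of 1414 olfactory and vomeronasal receptor probes, a guide to the floor of the array, in 1 of 12 arrays only. Robo2 exceeded it in 10 of 12, and its lowest readings, in miR-324 1 and miR-34a 3, did not. All 5 genes of the class were lower in the mean after miR-324 than after scramble, by 0.58 to 1.89, with 0 past the threshold.

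In the netrin class 3 of 5 genes lay close to the floor. Dcc, the attractive netrin receptor, read 2.42 to 3.11 and exceeded the floor guide in 0 of 12 arrays. Ntn1, the netrin that Dcc binds, exceeded it in 1 of 12. It read 4.77, 4.31 and 5.27 after miR-21, 4.11, 4.04 and 4.35 after miR-34a, 4.95, 3.67 and 4.07 after miR-324, and 4.26, 4.01 and 4.00 in scramble. Its mean difference from scramble after miR-21, 0.69 ± 0.33, was the largest of the class there (SE; adjusted p = 0.31). Unc5c, a repulsive netrin receptor, also exceeded the guide in 1 of 12. It read 4.54, 4.37 and 4.85 after miR-21, 4.98, 5.05 and 4.88 after miR-34a, 4.91, 5.21 and 5.31 after miR-324, and 4.75, 4.90 and 4.78 in scramble, with a difference of 0.33 ± 0.21 after miR-324 (adjusted p = 0.44). At such levels the array understates differences.

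Ntn4, a netrin of basement membranes and vessels, set the suffix B arrays apart. It read 5.86, 5.62 and 5.83 after miR-21, 6.40, 6.39 and 6.61 after miR-34a, 6.86, 4.54 and 5.71 after miR-324, and 5.87, 5.82 and 4.58 in scramble. The lowest readings were those of miR-324 2 and scramble 3, which share suffix B. They lay below the floor guides of their arrays (5.44 and 5.24), so their distance from the others is uncertain. Ntn4 was the 1 gene of the 36 whose miR-34a arrays did not overlap the scramble arrays (2.78% of the 36, against 5.80% of all probes, or 3.49% counting higher only). The difference was 1.04 ± 0.49 (SE; 6.47 ± 0.12 and 5.42 ± 0.73, SD, n = 3 each; adjusted p = 0.999), and 0.55 ± 0.22 within suffix A. Unc5b, a netrin receptor of neurons and vessels, ranged from 8.52 in miR-34a 3 to 10.03 in miR-324 1 and averaged 9.56 ± 0.19, 9.10 ± 0.50 and 9.48 ± 0.48 in miR-21, miR-34a and miR-324 and 9.41 ± 0.24 in scramble (SD, n = 3 each).

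Among the ephrins and Eph receptors, Efnb2 was lower after miR-21 than after miR-324. Efnb2, ephrin-B2, is a membrane ligand of EphB receptors on neurons and a marker of arterial endothelium. It read 12.72, 12.56 and 12.76 after miR-21, 12.61, 12.27 and 13.10 after miR-34a, 14.40, 14.14 and 14.33 after miR-324, and 12.50, 12.15 and 13.60 in scramble. The miR-324 arrays lay above all others, with scramble 3 and miR-34a 3 next. Efnb2 was lower after miR-21 than after miR-324 by 1.61 ± 0.34 (SE; 12.68 ± 0.11 and 14.29 ± 0.13, SD, n = 3 each; log2 difference −1.61, limma adjusted p = 0.029), a 3.05-fold difference, and did not pass with any 1 of the 6 arrays left out (adjusted p = 0.068 to 0.11). After miR-324 it exceeded scramble by 1.54 ± 0.34 without passing (adjusted p = 0.31), but passed without scramble 3 (1.97, adjusted p = 0.021). The 5 arrays with the highest Efnb2 were also the 5 with the highest endothelial marker medians, 12.80 to 15.43 against 11.46 or less in the others, and the part of endothelial cells was not tested.

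Epha5 is a receptor of A-type ephrins in neurons that lay partly at the floor of the array, above the floor guide in 8 of 12 arrays. It read 5.35, 4.85 and 6.01 after miR-21, 6.90, 6.84 and 5.07 after miR-34a, 4.95, 7.05 and 7.08 after miR-324, and 6.58, 7.10 and 7.02 in scramble. All miR-21 arrays lay below the scramble arrays, as did miR-34a 3 and miR-324 1. The readings of miR-21 1 and 2, miR-34a 3 and miR-324 1 did not exceed the floor guide of their arrays, so sizes that rest on them are uncertain. The fitted difference was −1.50 ± 0.60 after miR-21 and −0.63 ± 0.60 after miR-34a (SE; adjusted p = 0.24 and 0.999), and −0.03 after miR-34a without miR-34a 3. Epha4, a receptor of both ephrin types, was highest in miR-324 1, miR-324 4 and miR-34a 3 (6.60, 5.97 and 5.88) and 5.07 or lower in the other 9 arrays. It exceeded the floor guide in those 3 arrays only. Epha3 ranged from 3.61 to 6.49, was highest in miR-21 3 and miR-21 1, and exceeded the floor guide in 5 of 12 arrays. Efnb1, a B-type ephrin, averaged 10.36 ± 0.09 after miR-21, 9.84 ± 0.40 after miR-34a, 9.05 ± 0.40 after miR-324 and 9.49 ± 1.01 in scramble. Its lowest readings, 8.65 and 8.44, were those of the suffix B arrays, miR-324 2 and scramble 3. Efna5, an A-type ephrin, stayed between 6.85 and 7.85.

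The largest difference of the set was in Ncam1, the neural cell adhesion molecule of neurons, glia and other cells. It read 15.56, 15.28 and 15.40 after miR-21, 14.66, 14.63 and 11.49 after miR-34a, 11.22, 11.54 and 11.50 after miR-324, and 14.79, 14.78 and 11.46 in scramble. The 12 readings fell on 2 levels, 14.63 to 15.56 and 11.22 to 11.54, and the miR-34a and the scramble group each held arrays of both. After miR-21 Ncam1 was higher than after miR-324 by 3.99 ± 0.89 (SE; 15.41 ± 0.14 and 11.42 ± 0.17, SD, n = 3 each; limma adjusted p = 0.038), or 15.9-fold. With any 1 of the 6 arrays left out it did not pass (adjusted p = 0.085 to 0.14). Against scramble it differed by 1.74 ± 0.89 after miR-21, −0.08 ± 0.89 after miR-34a and −2.26 ± 0.89 after miR-324 (adjusted p = 0.35, 0.999 and 0.32), where scramble averaged 13.68 ± 1.92. Without scramble 3 the miR-324 difference was −3.37 and passed (adjusted p = 0.046), and the miR-21 difference was 0.63 (adjusted p = 0.68). In the suffix B pair Ncam1 stood at 11.54 in miR-324 2 and 11.46 in scramble 3, and in suffix A at 14.66 and 14.63 in miR-34a and 14.79 and 14.78 in scramble. Neuron marker medians did not split in this way: miR-324 2 and 4 and scramble 3 had medians of 13.29, 13.16 and 13.53 and miR-21 1 and 2 of 12.75 and 12.62. The median of 7 sensory neuron markers did not either, at 9.57 in miR-21 2 and 9.84 in miR-324 2. Some single markers did. Isl1 read 10.87 or more in the arrays high in Ncam1 and 9.89 or less in the others. Prph, Scn10a, Prdm12 and Elavl4 split in the same way by narrower margins, and the other neuron and sensory neuron markers did not. The median of 3 markers of dividing cells was 9.25, 8.81 and 9.46 after miR-21, 8.13, 8.39 and 5.06 after miR-34a, 6.80, 6.31 and 6.48 after miR-324, and 8.01, 8.30 and 5.41 in scramble. The 7 arrays high in Ncam1 were the 7 with the highest of these medians. Other cell types split too. The fibroblast median was 11.53 or more in the arrays high in Ncam1 and 9.80 or less in the others. The macrophage median was 5.11 or more against 5.00 or less, and the endothelial median, the other way, 11.46 or less against 12.80 or more. Of the satellite glia markers Fabp7 and Kcnj10 split, and Slc1a3, Sox10 and S100b did not. Medians of satellite glia, Schwann cell, mural and pituitary markers did not split. The part of these cell types, of neurons and of dividing cells in the Ncam1 difference was not tested.

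**Figure D4:**
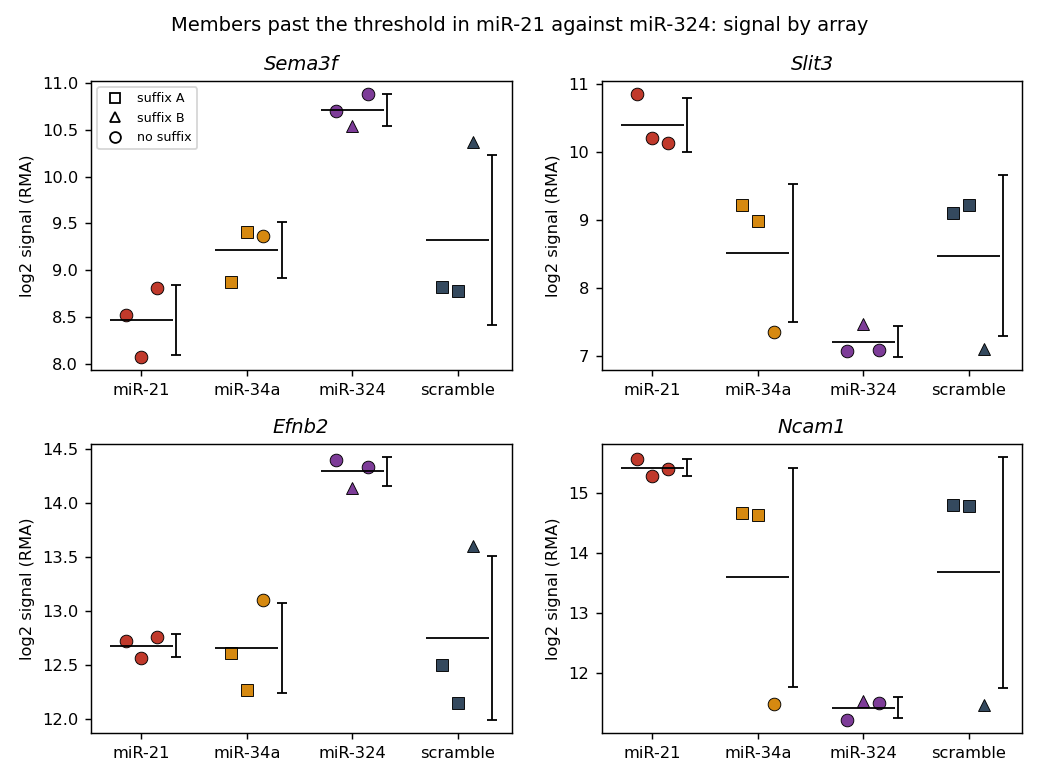
Log2 signal of Sema3f, Slit3, Efnb2 and Ncam1 in each of the 12 arrays by group, with the group mean (line) and SD (bar, n = 3); the point shape marks the title suffix and the axes do not start at 0. In all 4 genes the suffix B array of scramble lies nearer to the miR-324 arrays than scramble 1 and 2 do.

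The contactins had another pattern. Cntn1, a glycolipid-anchored adhesion molecule of axons, read 8.12, 8.23 and 8.66 after miR-21, 11.09, 11.01 and 7.37 after miR-34a, 6.22, 8.86 and 8.54 after miR-324, and 10.95, 11.80 and 8.92 in scramble. Cntn2, which marks early axons and the nodes of myelinated ones, read 8.38, 7.91 and 8.61 after miR-21, 9.59, 9.74 and 6.95 after miR-34a, 7.44, 9.75 and 9.66 after miR-324, and 9.26, 9.85 and 9.56 in scramble. All miR-21 arrays lay below all scramble arrays in both. Cntn1 differed from scramble by −2.22 ± 1.00 after miR-21 and by −2.68 ± 1.00 after miR-324, and Cntn2 by −0.80 ± 0.71 after miR-34a (SE; adjusted p = 0.29, 0.31 and 0.999), or by 0.11 without miR-34a 3. L1cam, an adhesion molecule of growing axons, averaged 13.41 ± 0.19 after miR-21, 12.35 ± 1.20 after miR-34a, 11.59 ± 0.85 after miR-324 and 12.45 ± 0.49 in scramble. Its lowest readings were 10.61 in miR-324 1 and 10.97 in miR-34a 3. Rgma, a ligand of neogenin, ranged from 5.38 to 6.94. Of this class 3 of 5 genes lay above scramble in every miR-21 array (Ncam1, L1cam and Rgma) and the contactins below in every one, where 25.6% of all probes did not overlap.

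Within groups, Crmp1 and Dpysl5 had the largest SDs of the 36 genes (2.40 and 2.30 in miR-34a). Crmp1, a microtubule-binding protein of the CRMP family, read 9.88, 8.86 and 10.05 after miR-21, 11.89, 11.88 and 7.73 after miR-34a, 7.73, 10.37 and 10.57 after miR-324, and 11.55, 11.97 and 10.49 in scramble. Dpysl5, its relative CRMP5, read 9.49, 9.25 and 9.72 after miR-21, 11.04, 10.89 and 6.98 after miR-34a, 7.59, 9.54 and 9.00 after miR-324, and 10.74, 11.28 and 10.04 in scramble. Both were lowest in miR-34a 3 and miR-324 1, and all miR-21 arrays lay below all scramble arrays. Crmp1 differed from scramble by −1.74 ± 1.02 after miR-21, and Dpysl5 by −1.05 ± 0.87 after miR-34a and −1.98 ± 0.87 after miR-324 (SE; adjusted p = 0.41, 0.999 and 0.33). MiR-34a 3 lay 4.16 below the mean of miR-34a 1 and 2 in Crmp1, as log2 difference −4.16. Without miR-34a 3 the Dpysl5 difference after miR-34a was 0.28. Dpysl2, the CRMP that carries the Sema3a signal, ranged from 13.18 to 16.03 and Dpysl3 from 10.80 to 14.00, both lowest in miR-34a 3 or miR-324 1. Marcks, a membrane and actin-binding substrate of protein kinase C, split like Ncam1. It read 14.67 to 15.25 after miR-21, 15.36, 15.38 and 13.74 after miR-34a, 13.36 to 13.53 after miR-324, and 15.15, 15.34 and 13.29 in scramble. All 5 genes of the class were lower in the mean after miR-324 than after scramble, by 1.15 to 1.98, with 0 past the threshold and a class median of −1.43. The 9 neuron markers were likewise all lower in the mean, with a median of −1.64 and 0 past the threshold. Their part in the class difference was not tested.

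Over the whole set the miR-21 and scramble arrays did not overlap in 15 of 36 genes (41.7%, against 25.6% of all probes), 7 higher after miR-21 (16.9% of all probes) and 8 lower (8.75%). The miR-324 and scramble arrays did not overlap in 12 of 36 (33.3%, against 19.9%), 6 higher (12.6%) and 6 lower (7.30%). Between miR-21 and miR-324 13 of 36 did not overlap (36.1%, against 21.4%). The median difference of the 36 from scramble was 0.04 after miR-21, −0.09 after miR-34a and −0.29 after miR-324, where all probes had 0.13, 0.04 and 0.09.

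Of 80 further axon guidance genes, 75 were measured, and 3 rose and 1 fell after miR-21 against scramble, where 1.04% of all probes passed. Plxnd1, the plexin that Sema3e binds and a receptor of vessels, rose by 3.10 ± 0.48 (SE; 15.09 after miR-21 and 11.98 in scramble in the mean, adjusted p = 0.017). It read 14.95, 15.14 and 15.17 after miR-21, 12.70, 12.60 and 14.38 after miR-34a, 13.89, 12.45 and 12.81 after miR-324, and 12.36, 12.23 and 11.36 in scramble. Next below the miR-21 arrays came miR-34a 3 and miR-324 1. The same 5 arrays had the highest medians of 4 myelinating Schwann cell markers, at 14.04, 14.44 and 14.43 after miR-21, 14.01 for miR-34a 3 and 13.12 for miR-324 1, while the others had 11.84 or less. Among these markers Mbp, a myelin protein gene, read 14.22, 14.40 and 14.60 after miR-21, 14.01 in miR-34a 3, 12.94 in miR-324 1 and 11.26 or less elsewhere, while Mag read 4.29 or less in every array. Egr2 was also highest in these 5 arrays. Pmp22 was not. It read 14.28 in miR-324 1, its lowest reading, and 15.54 in miR-34a 3, against 16.05 to 16.59 in the suffix A arrays. Against scramble 4 of 4 Schwann markers were higher in the mean after miR-21 (1 past the threshold, median 1.55), as were 4 of 5 mural markers (1 past the threshold, median 0.77), and 0 of 6 endothelial markers were (0 past the threshold, median −0.89). Their part in the Plxnd1 difference was not tested. Lrig1, a membrane protein that restrains growth factor receptors, rose by 1.92 ± 0.32, and Plxnb3, a semaphorin receptor, by 1.16 ± 0.22 (adjusted p = 0.020 and 0.031). Ablim1, an actin-binding LIM protein, fell (log2 difference −1.56 ± 0.30, adjusted p = 0.031). With 1 array left out, Plxnd1 passed in 3 of 6 fits and Lrig1 in 1 of 6, and Plxnb3 and Ablim1 in 0 of 6 (adjusted p = 0.041 to 0.076, 0.037 to 0.11, 0.063 to 0.13 and 0.057 to 0.14). Plxnd1 did not pass without miR-21 1, 2 or 3 (differences of 3.17, 3.08 and 3.06), and Lrig1 passed without scramble 2 alone. Between miR-21 and miR-324 5 of 75 were higher (1.31% of all probes) and 3 lower (1.14%) after miR-21. The higher were Lrig1 (2.37 ± 0.32), Gpc1 (2.04 ± 0.33), Farp2 (2.02 ± 0.35), Mical1 (1.69 ± 0.37) and Plxnd1 (2.04 ± 0.48). Their limma adjusted p was 0.0050, 0.0099, 0.013, 0.036 and 0.048. The lower were Ablim1 (−2.14 ± 0.30, adjusted p = 0.0052), Robo4, the Robo of endothelium (−3.40 ± 0.76, adjusted p = 0.037), and the ligand Efna1 (−2.48 ± 0.50, adjusted p = 0.023). With 1 array left out Ablim1 and Lrig1 passed in 6 of 6 fits and Gpc1 in 5 of 6. Farp2, Plxnd1 and Efna1 passed in 1 of 6, and Mical1 and Robo4 in 0 of 6. For Robo4 and Efna1 the adjusted p was 0.056 to 0.14 and 0.045 to 0.10. All 6 endothelial markers were lower in the mean in this comparison as well, and their part was not tested. After miR-34a and after miR-324 0 of 75 passed against scramble in limma, where 0.00% of all probes did in each, with 3 and 18 of 75 at an unadjusted p under 0.05, where 1.46% and 14.7% of all probes were. The medians of the 75 were 0.21, −0.01 and 0.02 after miR-21, miR-34a and miR-324.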

How the data were processed

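Gene expression was measured on 12 Clariom S Mouse arrays, each with RNA of transfected primary TG cells. The authors deposited log2 probe set signals, made with Transcriptome Analysis Console 4.0 and RMA per the submitters' processing notes; other steps are not given in the sources used here. RMA removes changes of total signal and compresses values near the floor. Arrays have no read depth, so their number limits precision. A platform table gave 1 symbol for 19572 of 22206 probes. Group means of all 12 arrays were fitted with limma 3.58.1 in R 4.3.3 (lmFit, eBayes, 8 residual degrees of freedom) and compared in 6 contrasts, adjusted over all 19572 probes by Benjamini-Hochberg; tests are two-sided. No filter on low signal was used; 26 of the 36 genes lay above the median probe. No arrays held identical values. The limma step was tested on simulated data. The members, gene lists and alternatives were chosen with earlier results of these data known.

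Values in every array are given for genes past the threshold and the 2 genes of each class with the widest range of group means. They are also given for the largest difference of each class against scramble. Some single markers and further readings were chosen after their values were seen. These markers were Tubb3, Scn10a, Prl, Mbp, Mag, Egr2, Pmp22, Dcn, Lum, Isl1, Prph, Prdm12, Elavl4, Fabp7, Kcnj10, Slc1a3, Sox10 and S100b. Scramble 3 takes its number from the title's running number. Alternatives were another normalization, centring, a filter on dim probes, a trended prior, array weights, fits of the groups compared, number and suffix blocks, a threshold of 0.10, and leaving out each array.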

Additional observations from a re-analysis of the deposited data

How the results depend on the processing

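Suffix and group were partly bound together, and wholly so in miR-21 against scramble, where every scramble array and no miR-21 array carries a suffix. With 3 arrays a group, counts of the 36 genes moved with the fit. Counts over all 19572 probes, given in brackets, moved as well. In miR-21 against scramble the main count was 0 (204 probes). It was 7 with array weights (2390 probes) and 3 with only the groups compared (906 probes). With suffix as a fixed block it was 4 (684 probes), namely Ncam1, Slit3, L1cam and Marcks, all higher. With suffix as a random block, whose correlation is estimated, it was 0 (34 probes). In miR-324 against scramble the main count was 0 (0 probes), and it was 14 with array weights (2589 probes). In miR-21 against miR-324 the main count was 4 (481 probes). It was 10 with array weights (1788 probes) and 7 with only the groups compared (1043 probes). With suffix as a fixed block it was 9 (1354 probes), and with it as a random block 6 (803 probes). With only the arrays without a suffix, an alternative chosen after seeing the data, it was 8 (863 probes). In miR-34a against miR-21 the main count was 0 (31 probes). It was 7 with array weights (2148 probes) and 7 with suffix as a fixed block (1004 probes). With suffix as a random block it was 0 (40 probes), and with only the arrays without a suffix 3 (418 probes). In miR-34a against miR-324 the main count was 0 (0 probes), and it was 14 with array weights (2806 probes). The F test gave 0 in the main fit (118 probes) and 17 with array weights (4099 probes). It gave 8 and 4 with suffix as a fixed or a random block (911 and 263 probes). At an adjusted p under 0.10 it gave 3 (351 probes), and with the number as a replicate block 1 (111 probes). The replicate block moved no other of these counts by over 1.5 times. Deviations from the group mean were correlated between arrays of different groups. Same-numbered arrays gave r = −0.41 to 0.47 over 15 pairs, 4 above 0.1. Pairs sharing neither number nor suffix gave −0.43 to 0.48 over 36 pairs, 7 above 0.1. As these ranges were alike, the numbers were not taken to pair arrays. Arrays with the same suffix gave 0.01 to 0.36 over 5 pairs, 4 above 0.1. The suffix block treats all arrays without a suffix as 1 level. In miR-21 against scramble it rests on the miR-34a and miR-324 arrays, since those 2 groups have no level in common.

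Without 1 array the count was 0 to 2 in miR-21 against miR-324 (86 to 402 of all probes). It was 0 to 3 in miR-324 against scramble, with 3 without scramble 3 (Sema3f, Efnb2 and Ncam1, and 383 probes). It was 0 to 2 in miR-34a against miR-21 and 0 to 9 in miR-34a against miR-324. There the 2 and the 9 came without miR-34a 3 (537 and 801 probes). For F it was 0 to 10, with 10 without miR-34a 3 (1596 probes) and 4 without scramble 3 (591 probes). In miR-21 and in miR-34a against scramble the count was 0 in every such fit (11 to 81 and 0 of all probes).

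Changes of sign were followed only for the largest difference of each class from scramble after each miRNA. Other genes changed sign too, such as Marcks after miR-21 (0.28, but −0.37 without scramble 3). Of the differences followed, those that changed sign, none past the threshold, were with array weights Slit1 (0.077) and Cntn2 (0.043) after miR-34a. With suffix as a fixed block they were Nrp2 (−0.61), Cntn1 (0.76) and Crmp1 (1.25) after miR-21, and Robo2 (0.14) and Dpysl5 (0.29) after miR-324. Without miR-34a 3 they were Nrp2 (−0.19), Slit1 (0.19), Cntn2 (0.11) and Dpysl5 (0.28) after miR-34a; over all fits without 1 array these ranged over −0.19 to 1.42, −1.16 to 0.19, −1.29 to 0.11 and −1.75 to 0.28. The cause was not tested. Quantile normalization again or median centring changed the sign of none of the differences given for these genes. The mean of several probes was not run, since each gene has 1 probe.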

Other observations

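Scramble 2 held the highest reading of 10 of the 36 genes, where it was the highest array for 10.6% of all probes. MiR-324 1 held the lowest reading of 10 and miR-34a 3 of 7, where these arrays were lowest for 8.92% and 9.10% of all probes. MiR-324 1 also held the highest reading of 7 of the 36 (14.6% of all probes), namely Nrp2, Plxna2, Epha4, Efnb2, Ntn4, Unc5b and Sema3a.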
